A study of Mus musculus with 10 samples.

Results

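The dual oxidases Duox1 and Duox2, their maturation factors Duoxa1 and Duoxa2, the NADPH oxidase genes Nox4, Cybb and Cyba, and nucleoredoxin (Nxn) were followed in the endothelium of tumour lymphatic vessels (LEC), sorted from mouse melanomas. All 8 genes were found once each by symbol among the 23510 rows of the deposited gene table. They were selected on their counts in anti-Ang2 and IgG libraries, so that the differences given for them between these groups are a description and not independent evidence. The anti-Ang2 group was 5 C57BL/6N mice that carried MT-ret tumours, grown from fragments implanted in the ventral flank, and that received an intraperitoneal antibody against angiopoietin-2 (Ang2). The IgG group was 5 mice of the same strain with the same tumours that received IgG. All mice were killed 12 h after the injection, the LEC were sorted by flow cytometry, and each mouse gave 1 RNA sequencing library. The MT-ret model is a melanoma of mice in which a metallothionein promoter drives the RET oncogene. Whether the sorted LEC came from the hosts or from the implanted fragments was not tested. The sources used here do not give the age or sex of the mice or the gate of the sort. The series title puts the question as the transcriptional response of tumour LEC to acute inhibition of Ang2, a growth factor that binds the receptor Tie2.

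NADPH oxidases are membrane enzymes that pass electrons from NADPH to oxygen on the far side of the membrane and so make superoxide or hydrogen peroxide. Dual oxidases release hydrogen peroxide, carry an added peroxidase-like domain, are switched on by calcium and leave the endoplasmic reticulum only with a maturation factor, DUOXA1 for DUOX1 and DUOXA2 for DUOX2. They are best known from thyroid, airway and gut epithelium. NOX4 makes mainly hydrogen peroxide, is abundant in endothelium and smooth muscle, and is active as soon as it is bound to p22phox, the product of Cyba. NOX2, the product of Cybb, is the oxidase of phagocytes and also needs p22phox, along with cytosolic subunits. Nucleoredoxin belongs to the thioredoxin family of redox proteins and binds Dishevelled, an adaptor of Wnt signalling.

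The libraries held 38090933 to 51786044 gene counts in the anti-Ang2 group and 40313230 to 83850341 in the IgG group. All 9 markers of lymphatic endothelium had counts in every library, among them the lineage regulator Prox1 at 980 to 1343 CPM in anti-Ang2 and 1183 to 1390 CPM in IgG libraries. Of the 9, only 2 (Lyve1 and Reln) had a higher mean in anti-Ang2 libraries. Ccl21a (278 to 512 against 624 to 1187 CPM) and Pdpn (180 to 257 against 261 to 304 CPM) were lower in every anti-Ang2 library than in any IgG library. CPM are counts scaled to the size of the library, corrected by TMM for differences in composition. RNA of other cells was present too. The summed CPM of 12 melanoma markers was 1144 to 5616 in anti-Ang2 and 270 to 1873 in IgG libraries (means 3415 and 986, exact permutation p = 0.0476, two-sided, and 0.190 after adjustment over 8 marker lists). That of 14 macrophage and monocyte markers was 74.5 to 295 and 53.7 to 209 CPM (exact permutation p = 0.127, adjusted p = 0.241), and that of 6 pericyte markers 137 to 393 and 43.4 to 192 CPM (exact permutation p = 0.0159, adjusted p = 0.127), again anti-Ang2 before IgG. Of the 6 pericyte markers, 3 (Cspg4, Kcnj8 and Abcc9) had a higher mean in anti-Ang2 libraries, and Rgs5, Pdgfrb and Des had a lower one. The largest part of the pericyte sum in each anti-Ang2 library was Cspg4, which melanoma cells also make. It was highest in anti-Ang2 1, 2 and 3, as was the melanoma sum. In bulk libraries fewer cells of a type and less RNA per cell cannot be told apart.

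Duox2, Duoxa2, Duoxa1 and Duox1 lie side by side on chromosome 2 in mm10. Duox2 (ENSMUSG00000068452.7) runs on the minus strand from 122279247 to 122298449, and Duoxa2 (ENSMUSG00000027225.7) on the plus strand from 122298900 to 122302885. Duoxa1 (ENSMUSG00000027224.14) runs on the minus strand from 122302191 to 122313730, and Duox1 (ENSMUSG00000033268.8) on the plus strand from 122315672 to 122347972. Each oxidase thus stands back to back with its own maturation factor. The RefSeq start sites of Duox2 and Duoxa2 are 673 bases apart and those of Duox1 and Duoxa1 1942 bases apart. At their far ends the genes of the maturation factors meet, and 682 bases of exon belong to both, out of 1592 exonic bases in Duoxa2 and 3977 in Duoxa1. The cDNA kit does not mark the strand, so reads from this stretch cannot be assigned to either gene.

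**Figure D1:**
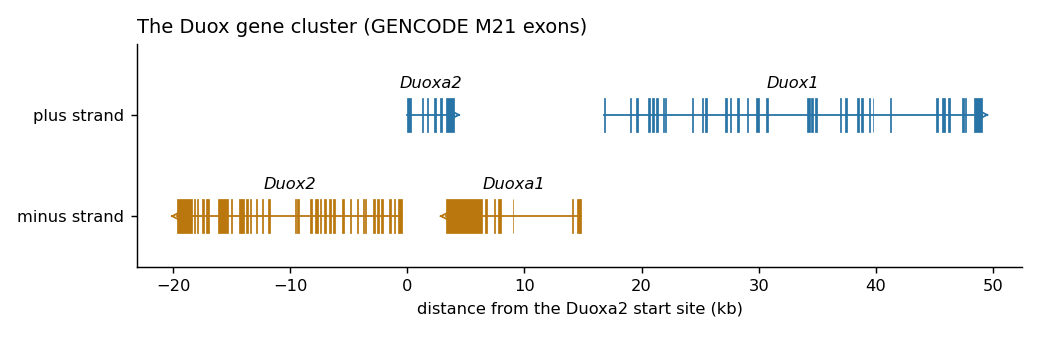
Exons of the 4 genes of the Duox cluster in the GENCODE M21 annotation, along the plus strand in kb from the start site of Duoxa2. Boxes are exons, lines introns and arrow heads the direction of transcription. Duox2 and Duoxa2 start back to back, as do Duoxa1 and Duox1, and the exons of Duoxa2 and Duoxa1 overlap by 682 bases.

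Duox2 and Duoxa2, the neighbours that start from the same intergenic stretch, both fell, and so did Nxn on chromosome 11. The promoter sequences of these 3 genes are therefore given as 250 bases before to 50 bases after the RefSeq start site (build GRCm38.p6, the assembly also called mm10), on the strand of the gene. Capitals mark a match to TGANTCA, the only match of any motif searched in these 3 windows. With any base allowed at N, this pattern is looser than the AP-1 motif, and the match is not taken as an AP-1 site.
Duoxa2, chr2:122298650-122298949, plus strand: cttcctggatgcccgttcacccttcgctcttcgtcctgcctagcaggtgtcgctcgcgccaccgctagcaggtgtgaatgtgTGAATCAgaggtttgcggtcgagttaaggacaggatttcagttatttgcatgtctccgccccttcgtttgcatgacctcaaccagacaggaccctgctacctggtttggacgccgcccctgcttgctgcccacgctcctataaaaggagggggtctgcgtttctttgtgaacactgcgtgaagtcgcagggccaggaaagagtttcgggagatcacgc
Duox2, chr2:122298178-122298477, minus strand: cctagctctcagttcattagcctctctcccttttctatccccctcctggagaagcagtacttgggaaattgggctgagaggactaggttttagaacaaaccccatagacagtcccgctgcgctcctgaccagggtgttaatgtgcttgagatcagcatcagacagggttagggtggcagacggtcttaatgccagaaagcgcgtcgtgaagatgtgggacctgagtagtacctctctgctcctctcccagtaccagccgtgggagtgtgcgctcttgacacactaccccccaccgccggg
Nxn, chr11:76399092-76399391, minus strand: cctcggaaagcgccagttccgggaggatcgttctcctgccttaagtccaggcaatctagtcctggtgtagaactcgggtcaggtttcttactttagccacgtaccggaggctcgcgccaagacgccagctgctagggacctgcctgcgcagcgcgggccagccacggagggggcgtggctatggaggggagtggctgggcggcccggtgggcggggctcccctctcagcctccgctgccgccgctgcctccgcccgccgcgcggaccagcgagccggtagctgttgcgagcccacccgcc

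The windows of Duoxa2 and Nxn are rich in CG dinucleotides, with 19 and 30, and that of Duox2 holds 10, against a median of 7 over the promoters of the table. Altogether 4 motifs were searched on both strands. The loose AP-1 pattern TGANTCA was present in the windows of Duoxa2 and Cybb, in both with A at N, and in 7.81% of all 32851 promoters compared. The STAT motif TTCNNNGAA was present in the window of Nox4 and in 8.30% of all promoters. The windows of Nox4 and Cybb lie wholly inside the GENCODE spans of these genes, which begin further upstream. The forkhead motif GTAAACA (3.65% of all promoters) and the antioxidant response core TGACNNNGC (12.4%) had no match in the 8 windows. A match or its absence describes these letters only.

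Of the 8 genes, 7 passed the filter on low counts and entered the test, and Cybb did not. After anti-Ang2, 3 of the 7 were called lower (Duox2, Duoxa2 and Nxn) and 1 higher (Cyba) by edgeR at an adjusted p under 0.05. Over all 16240 genes tested, 2.80% were called lower and 1.34% higher, with a median log2 fold change of 0.01. Because the genes were picked on this contrast, nothing is read from the difference between these shares. The anti-Ang2 libraries lay below every IgG library in 4 of the 7 (Duox2, Duoxa2, Duoxa1 and Nxn) and above every one in 1 (Cyba), where 3.76% and 2.34% of all genes tested did so.

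**Figure D2:**
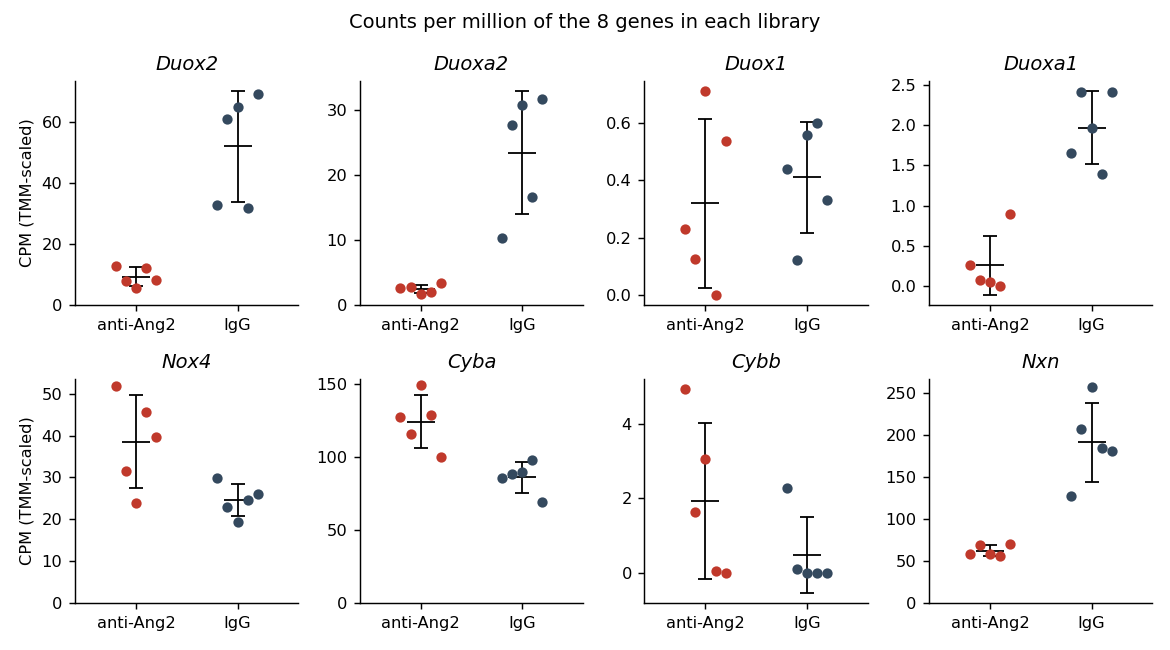
CPM of the 8 genes, with 1 point for each library and with the mean and SD of the 5 libraries of a group as bars, on a linear axis of its own for each gene. Groups are separate in Duox2, Duoxa2, Duoxa1 and Nxn, with anti-Ang2 lower, and in Cyba, with anti-Ang2 higher. They overlap in Duox1, Nox4 and Cybb.

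Duox2, the calcium-regulated producer of hydrogen peroxide, had 13.0, 7.84, 5.51, 12.1 and 8.24 CPM in anti-Ang2 libraries 1 to 5, against 32.7, 61.0, 64.9, 31.8 and 69.1 CPM in IgG libraries 1 to 5. The highest anti-Ang2 library lay below the lowest IgG library, and the IgG libraries split into a lower pair, 1 and 4, and the rest. The means were 9.33 ± 3.12 CPM in anti-Ang2 and 51.9 ± 18.2 CPM in IgG libraries (SD, n = 5 each). The log2 fold change, anti-Ang2 over IgG, was -2.47 ± 0.30 (SE), or 5.56-fold lower (edgeR adjusted p = 0.00124).

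Duoxa2, whose product escorts DUOX2 to the cell surface, had 2.66, 2.79, 1.71, 2.08 and 3.34 CPM in anti-Ang2 libraries, against 10.3, 27.7, 30.8, 16.7 and 31.7 CPM in IgG libraries. All anti-Ang2 libraries lay within a narrow range far below the IgG libraries, of which 1 and 4 were again the lowest. The means were 2.52 ± 0.64 CPM in anti-Ang2 and 23.4 ± 9.47 CPM in IgG libraries (SD, n = 5 each). With a log2 fold change of -3.22 ± 0.33 (SE), or 9.32-fold lower, Duoxa2 had the most negative value of the 7 genes tested (edgeR adjusted p = 8.8e-04). With the macrophage and monocyte marker sum as a covariate its log2 fold change was -2.62 ± 0.27 (edgeR adjusted p = 0.00457), a fold smaller by more than 1.5 times.

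Per unit of exon length, the levels of Duoxa2 and Duox2 were set side by side within each library. The ratio of Duoxa2 to Duox2 FPKM, the deposited counts per unit of exon length and library size, was 0.827, 1.43, 1.25, 0.689 and 1.63 in anti-Ang2 libraries and 1.26, 1.83, 1.91, 2.11 and 1.84 in IgG libraries. The groups overlapped in this ratio, since anti-Ang2 2 and 5 lay above IgG 1. The length of Duoxa2 behind these FPKM includes the 682 bases shared with Duoxa1, so whether Duoxa2 or Duox2 was the higher of the pair is uncertain. Library by library, the order of the anti-Ang2 libraries differed between the genes. Anti-Ang2 1 and 4 were highest in Duox2, and anti-Ang2 5 was highest in Duoxa2.

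**Figure D3:**
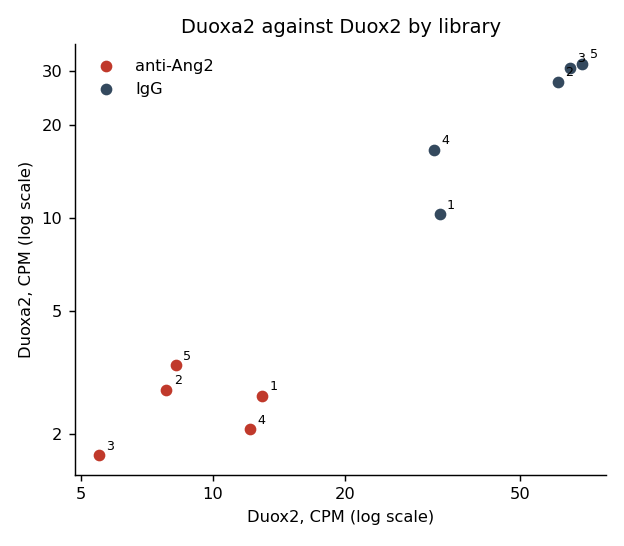
Duoxa2 CPM against Duox2 CPM on log axes, with 1 point for each library and its number beside it. The anti-Ang2 libraries lie at the lower left, at 5.51 to 13.0 CPM of Duox2 and 1.71 to 3.34 CPM of Duoxa2, and the IgG libraries at the upper right, at 31.8 to 69.1 and 10.3 to 31.7 CPM.

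Duox1, the other oxidase of the cluster, had few counts in every library. It had 12, 6, 37, 0 and 21 counts in anti-Ang2 libraries and 18, 10, 23, 25 and 13 counts in IgG libraries, so that the groups overlapped. Its log2 fold change was -0.35 ± 0.87 (SE), and it did not pass (edgeR adjusted p = 0.891). A count of 0 in anti-Ang2 4 allows up to 0.0593 CPM, by counting error alone. Of the 50-base words of the Duox1 transcript, 7.95% also occur in Duox2 transcripts. Whether reads from these stretches were placed uniquely was not tested.

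Duoxa1 had 14, 4, 3, 0 and 35 counts in anti-Ang2 libraries, against 68, 200, 81, 58 and 94 counts in IgG libraries. On the CPM scale these were 0.270, 0.0832, 0.0576, 0 and 0.893 against 1.65, 2.41, 1.97, 1.39 and 2.40, and the groups did not overlap. The log2 fold change of -2.93 ± 0.93 (SE) did not pass (edgeR adjusted p = 0.108). Without anti-Ang2 5, the highest library of its group, it was -4.23 ± 0.84 and passed (edgeR adjusted p = 0.0203), and without anti-Ang2 4 and 5 it was -3.82 ± 0.61 (edgeR adjusted p = 0.00977). It was -2.16 ± 1.25 without anti-Ang2 1, 2 and 3 (edgeR adjusted p = 0.436). In the authors' deposited table its log2 fold change was -0.14 with an adjusted p of 0.0114. DESeq2 run on the same counts without shrinkage gave -2.92 ± 0.85 (adjusted p = 0.0114). Since 682 of its exonic bases belong to Duoxa2 as well, the counts of Duoxa1 are uncertain. They equalled 0% to 26.7% of the Duoxa2 counts in anti-Ang2 and 6.40% to 16.1% in IgG libraries. The share of Duoxa1 counts that came from Duoxa2 RNA was not tested.

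Nxn, the nucleoredoxin gene (ENSMUSG00000020844.6, chromosome 11, minus strand, 76257198 to 76399140), had 58.2, 69.4, 57.7, 56.2 and 70.4 CPM in anti-Ang2 libraries, against 128, 207, 257, 185 and 181 CPM in IgG libraries. The anti-Ang2 libraries were close to each other and all below the lowest IgG library, IgG 1. The means were 62.4 ± 6.90 CPM in anti-Ang2 and 191 ± 46.8 CPM in IgG libraries (SD, n = 5 each). Its log2 fold change was -1.62 ± 0.16 (SE), or 3.07-fold lower (edgeR adjusted p = 8.0e-04). Across 18 alternative fits the log2 fold change ran from -1.73 to -1.37, and Nxn was called in every one, as were Duox2 (-2.62 to -2.22) and Duoxa2 (-3.41 to -2.62).

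Cyba, which encodes the p22phox partner shared by NOX4 and NOX2, rose. The gene (ENSMUSG00000006519.11) spans 122424776 to 122432930 on chromosome 8, minus strand. It had 128, 116, 150, 129 and 100.3 CPM in anti-Ang2 libraries, against 85.5, 88.4, 90.0, 98.3 and 69.0 CPM in IgG libraries. The lowest anti-Ang2 library, 5, lay just above the highest IgG library, 4. The means were 125 ± 18.3 CPM in anti-Ang2 and 86.2 ± 10.7 CPM in IgG libraries (SD, n = 5 each), and the log2 fold change was 0.53 ± 0.12 (SE), or 1.44-fold higher (edgeR adjusted p = 0.0305). The call was lost without any one of anti-Ang2 1, 3 or 4 or IgG 1, 2, 3 or 5, with edgeR adjusted p of 0.0584 to 0.0746 and log2 fold changes of 0.46 to 0.55. Phagocytes and other cells express Cyba as well, and the marker sums given above were higher on average in anti-Ang2 libraries. With the melanoma sum as a covariate the log2 fold change was 0.36 ± 0.16 (edgeR adjusted p = 0.362). With the macrophage and monocyte sum it was 0.37 ± 0.13 (edgeR adjusted p = 0.249). Without anti-Ang2 1, 2 and 3, the libraries of highest melanoma sum, it was 0.40 ± 0.15 (edgeR adjusted p = 0.233). As these sums were higher on average after anti-Ang2, the fits cannot separate RNA of other cells from a change in LEC. The part of other cells in the values of Cyba was not tested.

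Nox4 (ENSMUSG00000030562.17, chromosome 7, plus strand, 87246096 to 87398710), the constitutive producer of hydrogen peroxide, had 51.9, 31.5, 23.9, 45.5 and 39.6 CPM in anti-Ang2 libraries, against 29.9, 23.0, 19.4, 24.6 and 26.1 CPM in IgG libraries. All but anti-Ang2 3 lay above every IgG library. The log2 fold change was 0.64 ± 0.20 (SE) and did not pass (edgeR adjusted p = 0.0969). Without anti-Ang2 3 it was 0.78 ± 0.17 and passed (edgeR adjusted p = 0.0368), and DESeq2 gave 0.66 ± 0.21 (adjusted p = 0.0261). Pericytes express Nox4 too, and their marker sum was 393, 322, 307, 251 and 137 CPM in anti-Ang2 libraries and 83.5, 192, 43.4, 135 and 116 CPM in IgG libraries. Within it, Cspg4 had 274, 203, 231, 89.8 and 64.4 CPM in anti-Ang2 libraries and 16.96, 104, 17.8, 86.1 and 41.1 CPM in IgG libraries. Kcnj8 had 62.0, 73.1, 55.6, 81.3 and 39.2 CPM in anti-Ang2 and 30.7, 25.9, 14.2, 20.9 and 25.5 CPM in IgG libraries, and the groups did not overlap. The mean of Abcc9 was higher in anti-Ang2 as well, while those of Rgs5, Pdgfrb and Des were lower. The part of pericyte RNA in the values of Nox4 was not tested. Nox4 FPKM equalled 1.96% to 4.99% of Cyba FPKM in anti-Ang2 and 2.65% to 4.64% in IgG libraries, and these ranges overlapped.

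**Figure D4:**
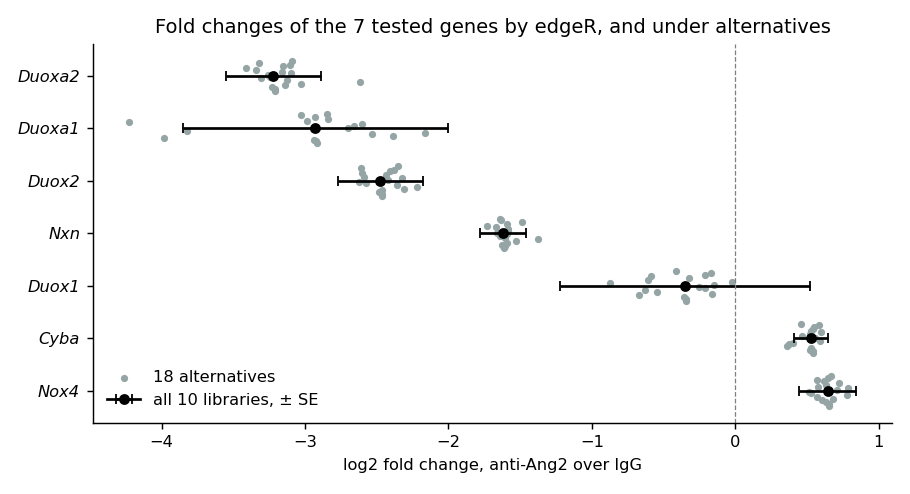
Log2 fold changes, anti-Ang2 over IgG, of the 7 tested genes. Black points with bars are edgeR estimates with their SE from all 10 libraries, and grey points are 18 alternative fits. Duoxa2, Duoxa1, Duox2 and Nxn lie left of 0 and Cyba and Nox4 right of 0 in every fit, while the bar of Duox1 crosses 0.

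Cybb, which encodes the catalytic subunit of the phagocyte oxidase (ENSMUSG00000015340.10, chromosome X, minus strand, 9435252 to 9487771), had too few libraries with counts to be tested. It had 256, 78, 159, 3 and 0 counts in anti-Ang2 libraries and 94, 8, 0, 0 and 0 counts in IgG libraries. On the CPM scale these were 4.94, 1.62, 3.05, 0.0572 and 0 in anti-Ang2, against 2.29, 0.0966, 0, 0 and 0 in IgG. The groups overlapped, and within each group most of the counts came from 1 to 3 libraries. The macrophage and monocyte sum was 258, 113, 295, 176 and 74.5 CPM in anti-Ang2 libraries and 209, 53.7, 78.2, 87.2 and 58.1 CPM in IgG libraries. The 3 libraries with the highest sum, anti-Ang2 3, anti-Ang2 1 and IgG 1, were also the 3 with the most Cybb. Anti-Ang2 4 went the other way, with 176 CPM of the markers and 3 counts of Cybb. Of the 14 markers, 13 had a higher mean in anti-Ang2 libraries. Up to 1 of them was at 0 in an anti-Ang2 library and 1 to 4 in an IgG library. Fcgr1 was at 0 in 5 libraries, Cd163 in 4, Adgre1 and Ptprc in 2 each and Ms4a7 in 1. The other markers of the list had counts in every library, though Csf1r had only 0.0486 CPM in IgG 3. The part of phagocyte RNA in Cybb was not tested. In the libraries with no count, a CPM of up to 0.0788 in anti-Ang2 5 and 0.0719 to 0.0734 in IgG 3, 4 and 5 was possible, by counting error alone.

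**Figure D5:**
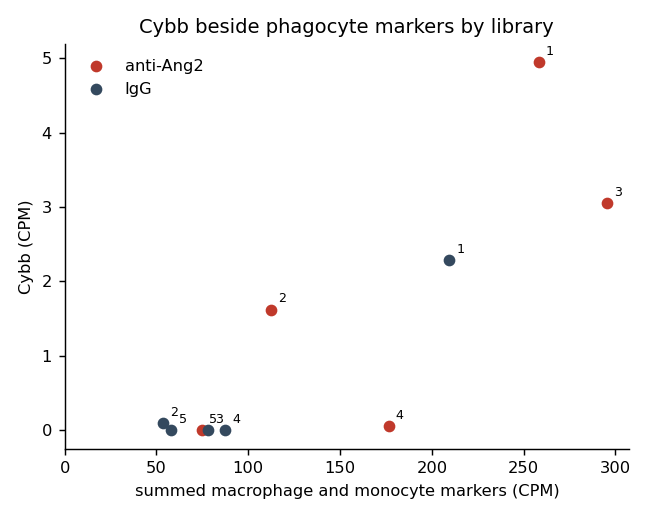
Cybb CPM against the summed CPM of 14 macrophage and monocyte markers, with 1 point for each library and its number beside it. Anti-Ang2 1, anti-Ang2 3 and IgG 1 hold the highest sums, 209 to 295 CPM, and the most Cybb, 2.29 to 4.94 CPM, while anti-Ang2 4 holds 176 CPM of the markers and 0.0572 CPM of Cybb.

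Levels between genes were compared as FPKM, which takes exon length into account. In anti-Ang2 libraries Cyba led with 125 ± 18.9 FPKM, followed by Nxn (20.1 ± 2.07), Nox4 (4.76 ± 1.45), Duoxa2 (1.65 ± 0.42) and Duox2 (1.53 ± 0.53). Cybb (0.345 ± 0.379), Duoxa1 (0.0695 ± 0.0994) and Duox1 (0.0637 ± 0.0590) came last (SD, n = 5). Duoxa2 and Duox2, whose order is uncertain for the same shared bases, overlapped over the libraries, as did Cybb and Duoxa1, and Duoxa1 and Duox1, while the other neighbours in this order did not. In IgG libraries the order was Cyba (85.5 ± 12.2 FPKM), Nxn (60.7 ± 14.4), Duoxa2 (15.01 ± 5.81), Duox2 (8.28 ± 2.73), Nox4 (2.99 ± 0.51), Duoxa1 (0.507 ± 0.106), Cybb (0.0867 ± 0.185) and Duox1 (0.0804 ± 0.0386). Here Cyba and Nxn overlapped, as did Duoxa2 and Duox2, Duoxa1 and Cybb, and Cybb and Duox1.

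By mean FPKM, Nox4 thus stood above both Duoxa2 and Duox2 in anti-Ang2 libraries and below both in IgG libraries. The ratio of Nox4 to Duox2 FPKM was 3.03, 3.04, 3.28, 2.84 and 3.63 in anti-Ang2 libraries, against 0.691, 0.285, 0.226, 0.586 and 0.286 in IgG libraries. Nox4 was the higher of the pair in every anti-Ang2 library and the lower in every IgG library. Among all genes tested, the mean FPKM of Duoxa2 exceeded that of 34.8% of genes in anti-Ang2 and 76.1% in IgG libraries, and that of Duox2 33.8% and 63.9%.

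The other genes of these pathways were taken from lists written by pathway, with earlier results of these data known. Their counts of calls are read against the 2.80% called lower and 1.34% called higher over all genes tested, and nothing is read from counts of 0 or 1 in lists of this size. The share of all genes tested with an unadjusted p under 0.05 was not counted. Nothing is therefore read from the numbers of list genes under that limit. Of 14 genes that build or accompany NADPH oxidases, 12 were tested, with a median log2 fold change of -0.01. Of these, 3 had an unadjusted p under 0.05, and 1 fell at the adjusted threshold. It was Sh3pxd2a, which encodes the podosome scaffold TKS5, a relative of the p47phox organizer. Sh3pxd2a had 13.1, 12.8, 13.7, 14.9 and 13.0 CPM in anti-Ang2 libraries, against 18.4, 27.9, 30.6, 22.1 and 15.5 CPM in IgG libraries. The groups did not overlap, and the log2 fold change was -0.76 ± 0.18 (SE, edgeR adjusted p = 0.0377). With 1 library left out it remained called without IgG 1 or IgG 5. Without any one of the other 8 libraries the call was lost, at edgeR adjusted p of 0.0540 to 0.0995 and log2 fold changes of -0.80 to -0.64. It was lost as well with the melanoma or the macrophage and monocyte sum as a covariate (-0.74 and -0.70, edgeR adjusted p = 0.228 and 0.219).

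The oxidase partner with the highest mean CPM, the protein disulfide isomerase P4hb, had 884 ± 146 CPM in anti-Ang2 and 917 ± 71.0 CPM in IgG libraries (SD, n = 5 each, edgeR adjusted p = 0.874). The following partners are named after their values were seen. Ncf1, the organizer of the phagocyte oxidase, had 2.95 ± 0.65 and 2.12 ± 1.061 CPM, and Ncf4 1.09 ± 0.87 and 0.147 ± 0.271 CPM, anti-Ang2 before IgG, and neither passed (edgeR adjusted p = 0.560 and 0.242). The GTPase Rac1, which activates NOX2, had 719 ± 49.8 CPM in anti-Ang2 and 720 ± 16.3 CPM in IgG libraries (edgeR adjusted p = 0.996).

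Among 15 tested genes that remove superoxide and peroxide, 1 rose and 0 fell, where 1.34% and 2.80% of all genes tested did so. The median log2 fold change was 0.17, and 12 of the 15 had a positive value. An unadjusted p under 0.05 was found in 6, all of them higher after anti-Ang2, with no share over all genes to read this number against. The gene called was Sod3, the extracellular superoxide dismutase. Sod3 had 138, 125, 155, 125 and 77.3 CPM in anti-Ang2 libraries, against 44.2, 59.1, 22.4, 51.5 and 65.6 CPM in IgG libraries, and the groups did not overlap. The log2 fold change was 1.35 ± 0.26 (SE, edgeR adjusted p = 0.0151). With the melanoma marker sum as a covariate it was 0.76 ± 0.29 (edgeR adjusted p = 0.297), a fold smaller by more than 1.5 times. It also missed the threshold with the macrophage and monocyte sum (1.24 ± 0.35, edgeR adjusted p = 0.147) and without anti-Ang2 1, 2 and 3 (1.052 ± 0.349, edgeR adjusted p = 0.192). The gene of this list with the highest mean CPM, the glutathione peroxidase Gpx1, had 708 ± 70.4 CPM in anti-Ang2 and 564 ± 55.7 CPM in IgG libraries (log2 fold change 0.33 ± 0.09, edgeR adjusted p = 0.0790).

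In the thioredoxin family, to which nucleoredoxin belongs, 0 of 12 tested genes were called by edgeR, and 3 had an unadjusted p under 0.05. DESeq2 called 1, Txnip, the binding inhibitor of thioredoxin and the gene of the list with the highest mean CPM. Txnip had 567 ± 137 CPM in anti-Ang2 and 807 ± 140 CPM in IgG libraries (log2 fold change -0.51 ± 0.17, edgeR adjusted p = 0.123). Of 6 genes whose products bind nucleoredoxin, among them the Dishevelled genes Dvl1, Dvl2 and Dvl3, 0 were called by edgeR and 0 by DESeq2, and 1 had an unadjusted p under 0.05. That with the highest mean CPM, the actin regulator Flii, had 269 ± 38.7 CPM in anti-Ang2 and 284 ± 21.3 CPM in IgG libraries (SD, n = 5 each). Of 5 haem peroxidases 1, the matrix enzyme peroxidasin (Pxdn), was tested, with 403 ± 89.8 CPM in anti-Ang2 and 343 ± 32.6 CPM in IgG libraries, and it did not pass (edgeR adjusted p = 0.457). DESeq2 called 0 of them, and 0 had an unadjusted p under 0.05.

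The genes whose pattern over the 10 libraries was most like that of each member were found by the root mean square difference in log2 CPM, after each gene was centred on its own mean. Nearest to Duoxa2 were Cmah (0.27), Rbp7 (0.38) and Kcnk5 (0.42), and nearest to Duox2 were Igf1 (0.32), Eln (0.35) and Ptn (0.35). Duox2 and Duoxa2 themselves were 0.50 apart, and Duox2 and Nxn 0.62. Nearest to Nxn were Tgm2 (0.12), Il17ra (0.14) and Nrp2 (0.19). Cyba was closest to Metrnl (0.11), Pja1 (0.13) and Ptp4a3 (0.13), and Nox4 to Nrgn (0.18), Slc40a1 (0.19) and Gm5805 (0.22). This measure covers differences within as well as between the groups, and genes with a similar fold change and little spread come out as near.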

How the data were processed

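LEC of 10 MT-ret melanomas were profiled, 5 per treatment, grouped by the treatment label. Per the labels' protocols, the PicoPure kit gave the RNA, of which 0.5 ng per library entered SMART-Seq v4 cDNA synthesis. STAR, featureCounts and DESeq2 with mm10 are named in the submitters' processing notes. The sources used here give no versions, annotation release or strand setting. Libraries are numbered by their titles.

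Per the file headers, the deposited table holds raw counts per gene and library, which entered every test, and FPKM by the authors, used for levels between genes. The deposited TPM sum to more than their definition allows and were used as a relative score for marker sums only. The authors' deposited mean signal (baseMean) was not used, and their log2 fold change and p-value are quoted once, as theirs. There were 0 columns of values per sample left unused for lack of a label. Coordinates are those of GENCODE M21 (mm10). The exon lengths of that release matched the deposited FPKM for all of the genes but Duox2, whose length in the table was 0.946 of it.

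Counts were tested with edgeR 4.0.16 in R 4.3.3 (quasi-likelihood F test, two-sided, TMM, filterByExpr at its settings of 10 for the count and 15 for the total, with treatment alone in the model), with Benjamini-Hochberg adjustment over all 16240 genes tested and a threshold of 0.05. CPM use the TMM library sizes, and log2 CPM a prior count of 2. Marker sums were compared with exact permutation tests over 252 arrangements. Other tools were DESeq2 1.42.0, matplotlib 3.10.9, scipy 1.17.1, numpy 2.4.6 and pandas 2.3.3 in Python 3.11.15. Promoters are from RefSeq (GRCm38.p6), where all 8 genes matched, and no protein sequence was used. Replicates differed beyond sampling noise in every pair (chi-square over its degrees of freedom at least 55.1). Limits for a count of 0 take 3 counts of the library total.

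The genes and lists were chosen with earlier results of these data known. Named are all 8 genes, each called gene and the gene of highest mean CPM in each list, and the 3 nearest genes by pattern. A marker symbol on 2 rows (Itgam) was left out, and Noxa1, Nxnl2, Mpo, Lpo, Epx, Cxcr2 and Krt1 were not analysed here. Neutrophil, lymphocyte and dendritic, keratinocyte and fibroblast marker sums did not pass (exact permutation p = 0.206, 1, 0.0794 and 0.929), nor did that of lymphatic endothelium (0.151).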

Additional observations from a re-analysis of the deposited data

Results flagged for a closer look

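Cybb in IgG 1, at 2.29 CPM, stood apart from the other IgG libraries, which held 0 to 0.0966 CPM. In the same library the summed macrophage and monocyte markers, at 209 CPM, stood apart from those of the other IgG libraries (53.7 to 87.2 CPM). Both were the highest of 5 values with a gap to the next above the 95% critical value of Dixon's test. Such gaps were looked for in 36 groups of 5 libraries, of which chance would mark about 1 in 20. Without IgG 1 the log2 fold changes of Duox2, Duoxa2 and Nxn were -2.60, -3.41 and -1.73 and each remained called, and Cyba was at 0.53 and was not called (edgeR adjusted p = 0.0584). Whether phagocyte RNA gave the Cybb counts of this library was not tested.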

How the results depend on the processing

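Duox2, Duoxa2 and Nxn were called lower under all 18 alternatives (another normalization, DESeq2, no low-count filter, the replicate number as a block, either marker sum as a covariate, anti-Ang2 1, 2 and 3 or 4 and 5 left out, and each library left out), and 3 to 6 of the 8 genes were called. Cyba was called in 8, Nox4 in 2, Duoxa1 in 3 and Duox1 in 0. With the replicate block 4 of them were called. The running numbers of the titles did not pair the libraries (correlations of deviations from the group means -0.12 to 0.11). The call of 1 oxidase partner gene, Sh3pxd2a, went to 0 with the replicate block, with the melanoma or the macrophage covariate, without anti-Ang2 1, 2 and 3 and without anti-Ang2 4 and 5, and was 0 to 1 without 1 library. For superoxide and peroxide removal the 1 call became 5 by DESeq2 (all higher), 0 with the replicate block, either covariate or without anti-Ang2 1, 2 and 3, and 1 to 2 without 1 library. In the thioredoxin family DESeq2 and the fit without anti-Ang2 4 and 5 called 1 gene. The causes were not tested. The log2 ratio of the lymphocyte and dendritic sum, close to 0, was -0.31 on the deposited TPM and -0.21 to 0.76 without 1 library, and that of the fibroblast sum, -0.07 with all libraries, was 0.75 and -0.38 to 0.40. All 16 levels moved by less than 1 SD when TMM-scaled counts per kilobase replaced FPKM. The lengths used were those behind the FPKM, so that only the scaling between libraries changed. Whether the levels depend on the exon lengths was not tested. Depth limits Duox1, Duoxa1 and Cybb, with 0 counts in at least 1 library each.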
